A study of Mus musculus with 8 samples.

Results

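DNase I accessible sites of DNBrg1 cells, in which a dominant-negative form of Brg1 had been induced, were compared with those of parental cells that hold no such protein, both kept without tetracycline. Hotspots, the stretches where DNase I cuts were enriched, were taken from the list of each library and merged into 1 site where they overlapped by 1 bp or more. The pair of lists gave 40694 sites, against 99999 sites when the lists of all 8 libraries of the series were merged. The same pair of lines with tetracycline, which represses the dominant-negative protein, gave 38114 sites and was used to find which differences were absent when the protein was not induced.

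The line 3134 is a line of mouse mammary epithelial cells. The series holds the parental line and lines with tetracycline-controlled dominant-negative Brg1, Chd4 or Snf2h, each measured with and without tetracycline. Lines under tetracycline control were kept in 5 µg/ml tetracycline, and cells were then plated with or without it for 48 h in medium with charcoal-dextran treated serum. The labels describe the constructs for Snf2h and Chd4, which were put into a line holding the tetracycline transactivator, but give no construct for Brg1 and do not say whether the parental cells held the transactivator. They give no clone number. Each group has 1 library, so the differences were not checked against replicates and there are no p-values.

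Brg1 is the ATPase of SWI/SNF complexes, which slide or evict nucleosomes at enhancers and promoters and so let transcription factors and nucleases reach the DNA. Dominant-negative forms of such ATPases typically enter the complex in place of the working enzyme without being able to use ATP. DNase I cuts such nucleosome-depleted DNA first, so a site where a complex keeps nucleosomes away gives many tags.

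The lists without tetracycline held 35071 hotspots in parental and 30423 in DNBrg1 cells, and those with tetracycline held 35083 and 29379. Each site was measured in a library by the highest tag density reached there, in the authors' scaled units. Every density was a whole number of tags, at a median of 93 tags in parental and 81 in DNBrg1 cells without tetracycline, and 105 and 65 with it. Counting error of a median site was thus 9.76% to 12.4% of its value. DNBrg1 with tetracycline had the fewest tags per site, and there 1 tag was worth a density of 0.586 against 0.255 to 0.310 in the other lists. The lists began at densities of 10.04 and 9.19 without tetracycline (parental, then DNBrg1), and of 13.02 and 16.4 with it, so a site missing from a list is not shown to be one without cuts. Gene positions on the build of the files, mm9, were not used here, so sites are given by position alone.

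Without tetracycline, more sites were lower in DNBrg1 cells than were higher. Both lists held 24118 of the 40694 sites (59.3%), 10586 sites were in the parental list alone and 5990 were in the DNBrg1 list alone. Of the parental hotspots, 69.8% overlapped a DNBrg1 hotspot (95% Wilson interval 69.3% to 70.3%), and 80.3% of the DNBrg1 hotspots overlapped a parental one (79.8% to 80.7%). With tetracycline these shares were 73.6% (73.1% to 74.0%) and 89.4% (89.0% to 89.7%). The overlap was smaller without tetracycline in both directions, but each share compares single libraries, and the lists of the states begin at different densities, whose part in the overlap was not tested.

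At sites in both lists the median ratio of DNBrg1 to parental density, as deposited, was -0.24 on the log2 scale without tetracycline (SD across sites 0.67) and -0.01 with it (SD 0.54). The target of the authors' scaling is not given, so the median ratio was set to 1 in each state, and a site was called at 2-fold from there. For a site in 1 list, the lowest density found in the other list stood in for the missing value, which gives a bound if the list kept all hotspots above that density. That needed a parental density of 21.7 for a lower call and a DNBrg1 density of 17.0 for a higher call. By this rule 4283 of the 40694 sites (10.5%) were lower in DNBrg1 cells and 1661 (4.08%) were higher, so that 72.1% of the called sites were lower. As deposited, without setting the median to 1, 6560 sites were lower and 757 were higher, so that 89.7% of called sites were lower. The direction of the imbalance is the same on both scales, but its size rests on the scaling.

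Of the lower sites, 2185 were in both lists and 2098 in the parental list alone. Of the higher sites, 753 were in both lists and 908 in the DNBrg1 list alone. For sites in both lists, the exact 95% counting interval of the ratio left out 2-fold at 1056 of the 2185 lower (48.3%) and 170 of the 753 higher sites (22.6%). A ratio of 3-fold or more was found at 706 lower and 106 higher sites, and of 4-fold or more at 275 and 26. On either side of the limit, 491 lower and 304 higher sites lay between 2- and 2.2-fold, and 717 and 513 lay between 1.8- and 2-fold. These intervals hold counting error alone, and the tags carry no molecular identifiers, so some may be copies of 1 molecule.

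**Figure D1:**
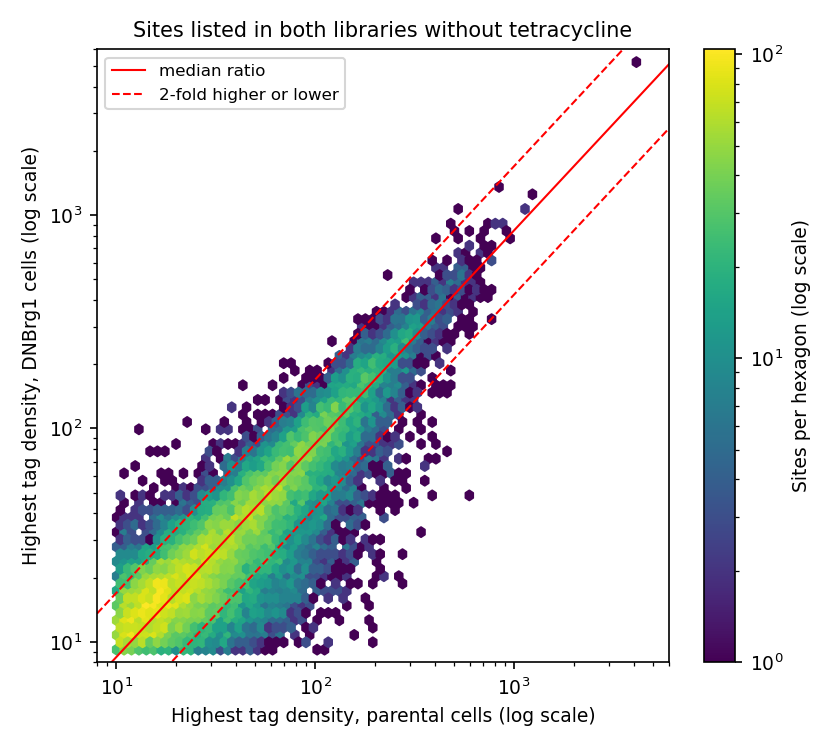
Highest tag density of each site listed in both libraries without tetracycline, parental cells on the x axis and DNBrg1 cells on the y axis, both in the authors' scaled units on log axes, with colour for the number of sites per hexagon. The solid line marks the median ratio and the dashed lines 2-fold above and below it: 2185 sites lie below the lower line and 753 above the upper one, and the lower sites reach far higher parental densities.

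The lowest ratios in DNBrg1 cells were at sites of high parental density. The 6 lowest had DNBrg1 densities of 10.2 to 18.4, under that list's median of 20.7. The lowest of all was on chromosome 12 from 3110434 to 3111304, where densities without tetracycline were 201 in parental and 10.2 in DNBrg1 cells, 16.7-fold lower after setting the median to 1 (12.1 to 23.5). With tetracycline the densities there were 227 and 43.4, so DNBrg1 cells were already 5.17-fold lower (4.07 to 6.66). On chromosome 2 from 33171757 to 33172594 the densities were 197 and 11.5 without tetracycline and 311 and 64.4 with it, which is 14.6-fold (10.8 to 20.1) and 4.78-fold lower. Both sites were the lowest in the DNBrg1 library without tetracycline and low, by less, in the DNBrg1 library with it.

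The same order was seen at the next of these sites. On chromosome 13 from 70792851 to 70793731, DNBrg1 cells were 12.6-fold lower without tetracycline (186 against 12.5) and 4.45-fold lower with it (176 against 39.3). On chromosome 18 from 58140959 to 58141893, they were 12.1-fold lower without (157 against 10.97) and 3.53-fold lower with tetracycline (257 against 72.1). On chromosome 16 from 15194900 to 15196142 the densities were 267 and 18.4 without tetracycline, 12.3-fold lower (9.68 to 15.9), against 232 and 116 with it. That site was just under the 2-fold limit with tetracycline, at 1.98-fold, with an interval from 1.69 to 2.32 that holds both sides of the limit. The sixth, on chromosome 4 from 81616063 to 81616994, differed from the others: DNBrg1 cells were as low with tetracycline (233 against 20.5, 11.2-fold) as without it (191 against 14.3, 11.3-fold).

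The highest ratios upward were smaller and most were found in both states. On chromosome 10 from 15111551 to 15112499, densities without tetracycline were 12.9 in parental and 94.9 in DNBrg1 cells, 8.70-fold higher (6.46 to 11.9), and with it 14.3 and 123, 8.72-fold higher. On chromosome 4 from 27897523 to 27898369 the ratio was 6.51-fold without (10.8 and 59.7) and 6.82-fold with tetracycline (13.02 and 87.9). On chromosome 6 from 110070246 to 110070917 it was 5.63-fold without (22.4 and 107) and 5.61-fold with tetracycline (36.6 and 203). At these 3 sites the DNBrg1 line was high in both of its libraries, and the groups of these lines differed by line rather than by tetracycline. At the chromosome 6 site DNCHD4 cells also reached 80.1 without and 52.6 with tetracycline. At the sites on chromosomes 10 and 4 they were at 15.4 or lower.

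The other 3 of the 6 highest ratios were less alike. On chromosome 12 from 96932921 to 96934191 the densities were 15.2 and 78.1 without tetracycline (6.06-fold), and with it the site was listed in DNBrg1 cells at 82.6 and not in parental cells. On chromosome 17 from 61804211 to 61804900 they were 10.3 and 49.5 without tetracycline (5.67-fold), and with it 21.7 in DNBrg1 cells with no parental hotspot, too low to decide the call. On chromosome 4 from 88707276 to 88708040, in contrast, parental and DNBrg1 cells were at 12.9 and 64.8 without tetracycline (5.94-fold, 4.37 to 8.21) and at 31.9 and 43.9 with it (1.39-fold). That last site was the only one of the 6 listed in all 4 libraries and under 2-fold with tetracycline.

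Calls of sites in 1 list rest on a bound, and the deposited hotspots are numbered with gaps, so some were removed after numbering by a step not given in the sources used here. A number was missing in the DNBrg1 list at the place of 405 of the 2098 lower sites in 1 list (19.3%, against 9.52% of all intervals between hotspots of that list). In the parental list this held for 455 of 906 higher sites in 1 list that have a hotspot on both sides (50.2%, against 12.3%). Whether removed hotspots made these calls was not tested. When the stand-in value was the lowest one within 50 kb in the other list, 615 of the 2098 lower and 135 of the 908 higher sites still passed 2-fold, while 297 and 347 had no such neighbour.

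The greatest bounds downward were for sites absent from the DNBrg1 list without tetracycline but present in its list with it. On chromosome 11 from 53832435 to 53833372, the parental density was 201 without tetracycline. That is 18.6-fold above the lowest density of the DNBrg1 list and 15.9-fold above its lowest hotspot within 50 kb (10.7), and with tetracycline the densities were 236 and 39.8. On chromosome 4 from 128626797 to 128628303, the parental density was 187, which is 17.2-fold above that list but 11.7-fold above its lowest hotspot within 50 kb (13.5), against 186 and 90.2 with tetracycline. On chromosome 1 from 35991829 to 35992649 it was 163, or 15.04-fold above that list, which had no hotspot within 50 kb, against 221 and 57.4 with tetracycline. None of these 3 positions had a number missing in the DNBrg1 list. The greatest bound of all, 24.3-fold on chromosome 5 from 112364136 to 112365284 (263 in parental cells), is less sure: the only DNBrg1 hotspot within 50 kb of it had a density of 256.

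The greatest bounds upward belonged to sites of the DNBrg1 line in both states. On chromosome X from 80193757 to 80194658 the DNBrg1 densities were 123 without and 118 with tetracycline, on chromosome 9 from 6598576 to 6601810 they were 109 and 96.1, and on chromosome 3 from 149324663 to 149325566 they were 88.3 and 76.2. None of the other 6 libraries listed any of these 3 sites. On chromosome 11 from 68504780 to 68505759 they were 77.6 and 86.7, with 9.60 in DNCHD4 cells without tetracycline and no hotspot elsewhere. Numbers were missing at all 4 positions in the parental list without tetracycline, 12, 1, 10 and 1 of them. Over all sites, 290 were in both DNBrg1 lists and none of the other 6, at a median DNBrg1 density of 15.8, and 123 of them (42.4%) were called higher, against 15.2% of all sites in the DNBrg1 list alone. Conversely 877 were in neither DNBrg1 list but in all 6 others, at a median parental density of 20.1, and 382 of them (43.6%) were called lower, against 19.8% of all sites in the parental list alone. A call of a site in 1 list is only a density limit, at 17.0 in DNBrg1 or 21.7 in parental cells. Being listed in further libraries also needs a density, such as 16.4 in DNBrg1 cells with tetracycline. The choice of these sites thus in part fixes the larger shares.

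With tetracycline, which represses the protein, fewer sites differed and they were more evenly divided. Of 38114 sites, 1793 were lower (4.70%) and 1474 were higher (3.87%) in the DNBrg1 line. Calls of sites in 1 list were harder to reach there. They needed a parental density of 33.1 or a DNBrg1 density of 25.8, against 21.7 and 17.0 without tetracycline. At sites in both lists, which need no bound, 4.08% of 25730 were lower and 2.70% higher with tetracycline. Without it, 9.06% of 24118 were lower and 3.12% higher. These calls still need the densities just given, since no listed value lies below the lowest of its list. They too were thus harder to reach with tetracycline, and the part of this in the shares was not tested. For a call without tetracycline, the difference was termed present with tetracycline when it also passed 2-fold there in the same direction, absent when it did not, and undecided when a missing value left both possible. Among the 4283 lower sites the difference was absent at 2448, present at 1131 and undecided at 704, so that 68.4% of the 3579 decided sites were lower only without tetracycline by this rule. Among the 1661 higher sites it was absent at 686, present at 458 and undecided at 517, which is 60.0% absent among the 1144 decided sites. The higher share rests on the setting: it was 42.6% as deposited and 22.8% at 3-fold, while the lower share was 73.7% and 53.7%.

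These shares were larger among sites in all 4 lists, where no bound was used, but that choice of sites in part fixes the rise. The DNBrg1 list with tetracycline held 100% of the lower sites termed absent and 62.5% of those termed present. The parental list with tetracycline held 100% of the higher sites termed absent and 40.2% of those termed present. Of the 20684 sites listed in all 4 libraries, 1972 were lower without tetracycline and the difference was absent with it at 1535 (77.8%). For higher sites the counts were 439 of 578 (76.0%). An absent difference was often a smaller difference in the same direction. With tetracycline the median log2 ratio was -0.42 at the 1535 lower sites (quartiles -0.67 and -0.12) and 0.42 at the 439 higher sites (0.17 and 0.65). The sign was shared between states at 1708 of the 1972 lower sites (86.6%) and 520 of the 578 higher sites (90.0%). The log2 ratio with tetracycline was within 0.5 of 0 at 845 of the lower and 253 of the higher sites. At 1 lower site and 0 higher sites the difference passed 2-fold in the opposite direction.

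The reverse was asked of the differences with tetracycline. Of 751 sites in all 4 lists that were lower with tetracycline, 314 (41.8%) were not lower without it, and of 497 higher sites, 358 (72.0%) were not higher without it. The sites called in both states, 437 and 139, are the same in either order, so these shares differ as the totals do. Over the 20684 sites the log2 ratios of the states had a Spearman rho of 0.52 and a Pearson r of 0.55, given as a description since the points share lines, chromosomes and 4 libraries. Their SD was 0.67 without and 0.53 with tetracycline, and 61.0% and 71.0% of sites lay within 0.5 of 0.

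Taking the change of the ratio itself, the ratio of DNBrg1 to parental density was at least 2-fold lower without than with tetracycline at 1409 of the 20684 sites (6.81%), and at least 2-fold higher at 403 (1.95%). As deposited, these counts were 2343 and 154, and with a density of at least 20 in every list they were 679 and 166. By this stricter reading, 756 of the 1535 lower sites whose difference was absent with tetracycline (49.3%) moved 2-fold between states, and 126 of the 439 higher sites (28.7%). The other sites of both classes crossed the 2-fold limit by a smaller step.

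**Figure D2:**
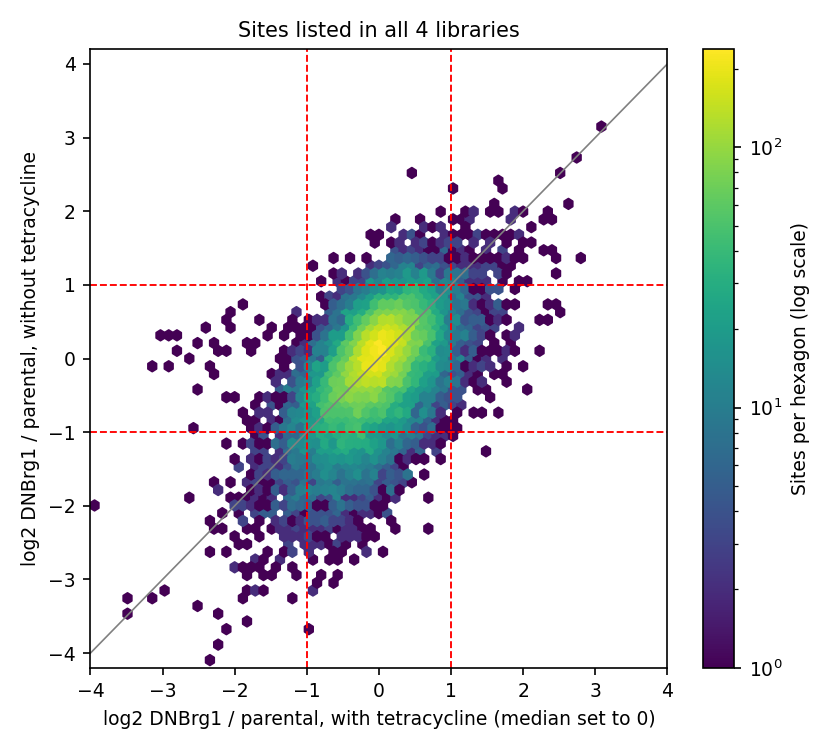
log2 ratio of DNBrg1 to parental density without tetracycline (y axis) against that with it (x axis), each with its median set to 0, for the 20684 sites listed in all 4 libraries, with colour for the number of sites per hexagon. Dashed lines mark 2-fold and the grey line equal ratios. Of the 1972 sites below the lower dashed line, 437 also lie left of the left one, and of the 578 sites above the upper dashed line, 139 also lie right of the right one.

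The clearest sites lower without tetracycline alone, with a log2 ratio within 0.5 of 0 with it, were high in 3 libraries and low in 1. On chromosome 12 from 109532601 to 109533406 the densities with tetracycline were 185 in parental and 149 in DNBrg1 cells, and without it 112 and 14.03, 6.78-fold lower (5.11 to 9.15). On chromosome 6 from 55285673 to 55286788 they were 183 and 167 with tetracycline and 127 and 17.3 without it, 6.21-fold lower (4.81 to 8.13). On chromosome 8 from 73233999 to 73234910 they were 156 and 132 with tetracycline and 132 and 18.1 without it, 6.19-fold lower (4.82 to 8.05). At each of these sites the library of induced DNBrg1 cells stood far below the other 3, none of which was under 112. The sites were picked by their ratios in these libraries, which in part fixes this pattern.

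The other 3 of these 6 sites did the same, at other levels. On chromosome 15 from 97744357 to 97745374, the densities were 261 and 185 with tetracycline and 324 and 45.2 without it (6.08-fold lower, 5.19 to 7.15). On chromosome 19 from 47354055 to 47355134 they were 200.3 and 203 with tetracycline, and 125 and 17.6 without it (6.02-fold, 4.67 to 7.87). On chromosome 8 from 113239759 to 113240553 they were 68.8 and 51.0 with tetracycline, and 68.0 and 9.95 without it (5.79-fold, 4.12 to 8.33). These sites were 795 to 1116 bp wide.

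The clearest sites higher without tetracycline alone were weaker sites, and their parental value was also lower without tetracycline. On chromosome 4 from 88707276 to 88708040, described above, parental density went from 31.9 with to 12.9 without tetracycline while DNBrg1 density went from 43.9 to 64.8. On chromosome 15 from 10745685 to 10746602 the densities were 35.0 and 39.8 with tetracycline and 17.8 and 54.9 without it (3.64-fold higher, 2.77 to 4.85). On chromosome 5 from 91182798 to 91183432 they were 22.0 and 24.02 with tetracycline and 12.4 and 36.7 without it (3.51-fold, 2.51 to 4.97). So both lines moved, in opposite directions, on the deposited scale. On that scale parental density also moved over all sites in the 4 lists, by -0.40 at the median log2. The sites were picked by their ratio without tetracycline, which favours low parental values there.

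At 3 more such sites the pattern was alike. On chromosome 11 from 35784117 to 35785302 the densities were 16.7 and 18.7 with tetracycline and 13.9 and 40.6 without it (3.44-fold). On chromosome 4 from 116882954 to 116883879 they were 27.6 and 36.9 with tetracycline and 15.7 and 43.4 without it (3.26-fold). On chromosome 7 from 20475137 to 20475718 they were 22.0 and 28.1 with tetracycline and 12.6 and 34.2 without it (3.20-fold). In all 6 the induced DNBrg1 library was the highest of the 4 and the parental library without tetracycline the lowest.

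**Figure D3:**
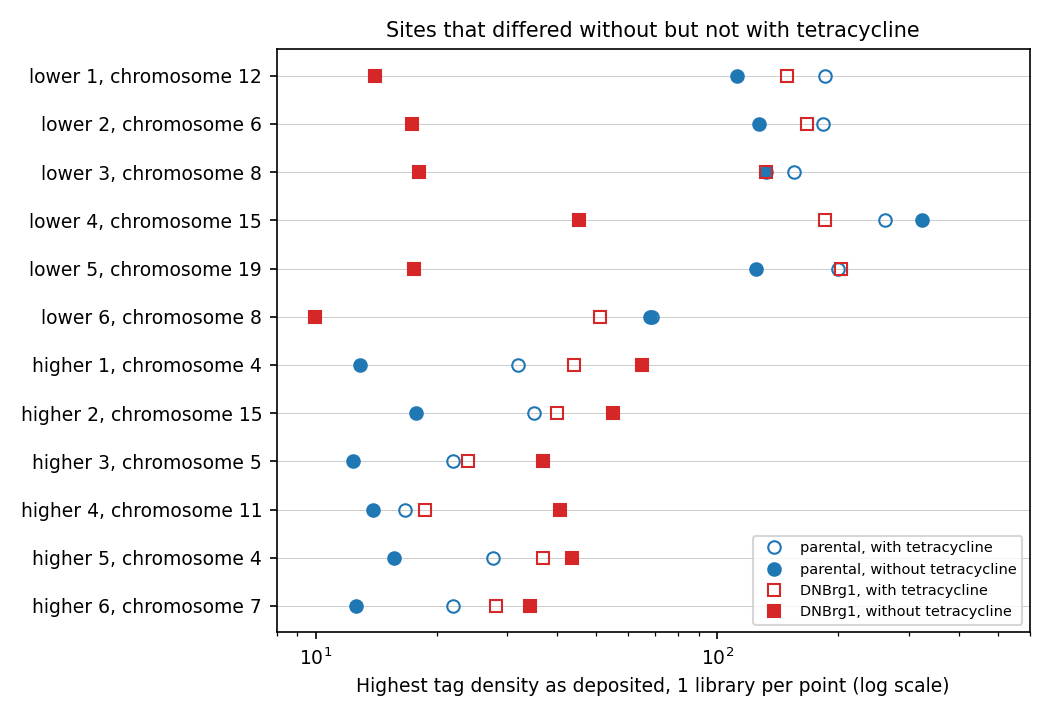
Highest tag density in the 4 libraries (x axis, log scale, authors' scaled units) at the 6 lower and 6 higher sites with the greatest ratio without tetracycline and a log2 ratio within 0.5 of 0 with it, 1 row per site. Circles are parental and squares DNBrg1 cells, open with and filled without tetracycline. The filled squares lie far left of the other marks at the lower sites, from 9.95 to 45.2, and furthest right at the higher sites, from 34.2 to 64.8.

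Differences found in both states mark the DNBrg1 line whether or not the protein was induced. Among sites in all 4 lists they numbered 437 lower and 139 higher. Besides the chromosome 4 site above, the greatest lower ones were on chromosome 2 from 38537581 to 38538390 (115 against 10.2 without and 186 against 16.4 with tetracycline) and on chromosome 18 from 53099807 to 53100970 (172 against 15.6, and 271 against 31.1). Another, on chromosome 6 from 67384557 to 67386161, had 327 against 31.9 without and 269 against 32.8 with tetracycline. Among higher sites, chromosome 10 from 109101829 to 109102517 had 12.9 against 48.5 without and 13.6 against 83.2 with tetracycline. With 1 library per group and no measure of the protein used here, a difference between the lines and expression of the protein despite tetracycline cannot be told apart at these sites.

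The lower sites were strong parental sites, and between parental and DNBrg1 cells the response was in the DNBrg1 line. At the 1535 sites lower without tetracycline alone, the median density was 79.7 in parental cells with tetracycline and 62.6 without it, while in DNBrg1 cells it was 61.5 with and 18.9 without tetracycline. After setting each line's own median response to 0, the response to tetracycline removal was -0.91 on the log2 scale in DNBrg1 cells (quartiles -1.38 and -0.47) and 0.06 in parental cells (-0.26 and 0.38). At the 18134 sites not called, medians were 53.3 and 39.4 in parental and 52.1 and 32.1 in DNBrg1 cells, with and without tetracycline in that order. The rule that defines the classes used these same 4 libraries, so these medians describe the classes and test nothing. DNCHD4 and DNSnf2h cells, not used in that rule, also moved down at the 1535 sites, by -0.38 and -0.31 (1343 sites).

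The higher sites were weak parental sites. At the 439 sites higher without tetracycline alone, median densities were 27.9 in parental and 35.7 in DNBrg1 cells with tetracycline, and 17.5 and 34.7 without it. The centred responses were 0.63 in DNBrg1 cells (0.36 to 0.93) and -0.19 in parental cells (-0.45 to 0.06). As deposited, DNBrg1 density at these sites hardly moved, by -0.02 at the median, against -0.64 over all sites in the 4 lists, and parental density moved by -0.59 against -0.40. At the 437 lower sites of both states DNBrg1 density was 35.2 with and 18.1 without tetracycline, against 92.1 and 76.5 in parental cells, and at the 139 higher ones it was 57.4 and 37.5, against 20.2 and 16.2.

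Widths differed less than densities. Sites lower without tetracycline alone had a median width of 806 bp, those lower in both states 875 bp, sites not called 774 bp, and sites higher without tetracycline alone and in both states 714 and 742 bp. Sites in 1 list were narrower, and among them the called ones were the wider. Those in the parental list alone had a median of 663 bp when called lower and 521 bp when not called. Those in the DNBrg1 list alone were at 599.5 bp when called higher and 479 bp when not called. A call of a site in 1 list needs a higher density, whose part in these widths was not tested.

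Sorted by their density in parental cells with tetracycline, a library that the calls without it did not use, sites of middle to high density were lower most often. In 5 groups of equal size from weak to strong, 3.36%, 9.02%, 17.5%, 21.2% and 16.0% of sites were lower in DNBrg1 cells without tetracycline, and 5.91%, 4.16%, 2.38%, 1.08% and 0.554% were higher. Weak sites can be called lower less easily, because the DNBrg1 list ends at 9.19. Sorted by density in DNBrg1 cells with tetracycline, the lower shares were 9.59%, 12.5%, 14.4%, 14.1% and 8.81%, so the rise toward strong sites was smaller, and the strongest group was no longer above the weakest. The order of sites thus depends on which line's density sorts them.

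DNCHD4 and DNSnf2h cells without tetracycline share the parental control library with this comparison, so their values are set side by side without a comparison between lines. Against parental cells, each with its median ratio set to 1, the 1535 sites lower without tetracycline alone had a median log2 ratio of -1.30 in DNBrg1, -0.19 in DNCHD4 and -0.21 in DNSnf2h cells, where 1407 of them were listed. The 439 higher sites had medians of 1.14, 0.26 and 0.51, with 218 listed in DNSnf2h cells. The DNSnf2h list without tetracycline begins at a density of 8.06. Sites weaker than that in DNSnf2h cells are left out of its median, so 0.51 holds for the listed sites alone and leans upward. Each line's own response to tetracycline removal, which does not use the parental libraries, was taken at sites listed in both of its libraries. At the 1535 lower sites it was -0.38 in DNCHD4 and -0.31 in DNSnf2h cells (1343 sites). At sites not called it was 0.02 (18074 sites) and 0.05 (10740 sites). At the 437 sites lower in both states it was -0.40 and -0.34 (417 sites), where DNBrg1 cells were at -0.22. At the 439 higher sites it was -0.0038 (438 sites) and -0.17 (174 sites). The responses of DNCHD4 and DNSnf2h cells were thus of a like size at lower sites of either class. The DNBrg1 values are part of how the sites were chosen.

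Chromosome medians differed between the lines, alike in both states, though on some chromosomes only a part of the length differed. Over sites in all 4 lists, the median log2 ratio of DNBrg1 to parental density was -0.52 without and -0.56 with tetracycline on chromosome 18, and -0.48 and -0.51 on chromosome 14. It was -0.33 and -0.27 on chromosome 8, and -0.30 and -0.34 on chromosome 3. On chromosome 7 it was 0.22 and 0.21, on chromosome 15 it was 0.20 and 0.26, and on chromosome 19 it was 0.17 and 0.19. The 20 chromosome medians of the states had an r of 0.98, shared their sign on 17 chromosomes, and differed by at most 0.07. Those points come from the same 4 libraries.

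The share of lower sites without tetracycline followed these medians. It was 18.1% on chromosome 18, 17.6% on chromosome 14 and 15.04% on chromosome 8, against 7.50% on chromosome 7, 7.56% on chromosome 19 and 8.28% on chromosome 15. In windows of 10 Mb, 47 of 243 had a median of -0.3 or lower without tetracycline and 40 of these also did with it, while 20 were at 0.3 or higher, 11 of them also with it. Some chromosomes differed in part only. Without tetracycline, the windows of chromosome 19 from 0 and 40 Mb were at 0.52 and -0.06. Those of chromosome 8 from 10 and 80 Mb were at -0.01 and -0.53, and those of chromosome 14 from 60 and 100 Mb at -0.61 and 0.19. The windows of chromosome 18 all lay from -0.64 to -0.50. Whether copy number differs between the lines on these chromosomes or parts of them was not tested. With the median set to 1 within each chromosome instead, 72.3% of the called sites were lower, against 72.1%. That setting does not level parts of 1 chromosome that differ from each other.

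**Figure D4:**
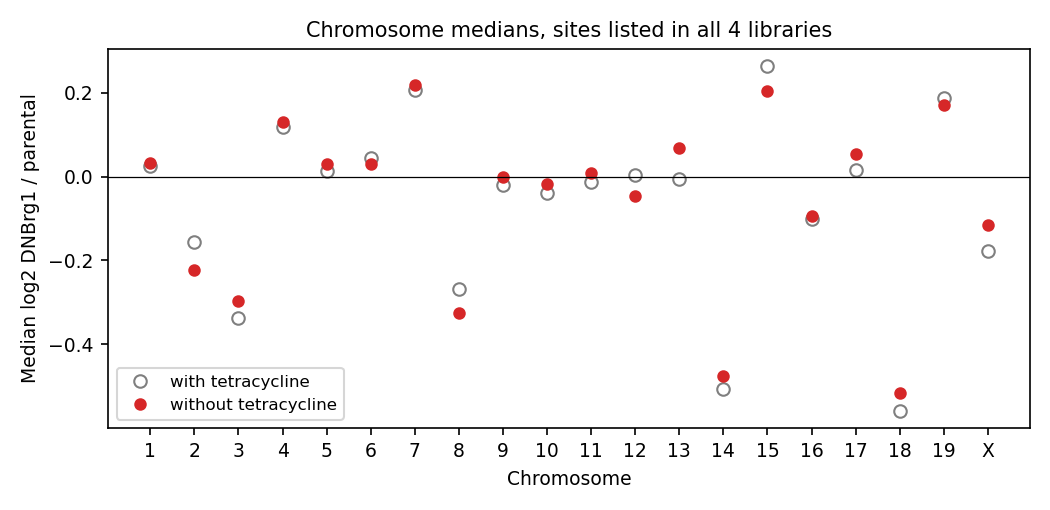
Median log2 ratio of DNBrg1 to parental density (y axis) on each chromosome (x axis), over sites listed in all 4 libraries, with tetracycline (open) and without it (filled). The open and filled points differ by at most 0.07 on every chromosome, from chromosome 18 at -0.52 without tetracycline to chromosome 7 at 0.22.

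A stretch of chromosome 13 differed between the lines without tetracycline and not with it. It was found by ranking 820 windows of 1 Mb with 10 or more sites in all 4 lists. The ranking used the median difference of the log2 ratio between states, so the rank is how the stretch was chosen. That choice also in part fixes how many of its sites differed upward or were called higher. The median differences of the windows had an SD of 0.19, and the windows starting at 23, 21 and 22 Mb of chromosome 13 ranked 1, 3 and 4 from the top, at 0.63, 0.62 and 0.56. In the window at 23 Mb, 48 of its 48 sites were above 0. As background, the largest histone gene cluster of the mouse lies on chromosome 13, but the place of genes on mm9 was not used here.

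From 21 to 24 Mb of chromosome 13 there were 125 sites, of which 94 were in all 4 lists. Their median log2 ratio was 0.60 without tetracycline (quartiles 0.40 and 0.81) and -0.01 with it (-0.14 and 0.14). The difference between states had a median of 0.61 and was above 0 at 91 of the 94 sites. As deposited, the median ratio without tetracycline was 0.36 and the median difference 0.38, above 0 at 78 of the 94. Median densities were 62.8 with and 46.5 without tetracycline in parental cells, and 63.6 and 65.1 in DNBrg1 cells. So the lines were alike with tetracycline, and parental density was lower without it while DNBrg1 density was not.

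Relative to each line's own median response, the stretch moved by 0.70 in DNBrg1 cells, above 0 at 88 of 94 sites, and by 0.03 in parental cells, above 0 at 49 of 94. In DNCHD4 cells it moved by -0.29 at 94 sites, and in DNSnf2h cells by -0.35 at 71 sites. Most single sites were under the 2-fold limit: 21 of the 125 were called higher (16.8%, against 4.08% of all sites) and 1 lower. Of these 21, the difference was absent with tetracycline at 12, undecided at 9 and present at 0. Choosing the stretch by its difference between states in part fixes these counts. The stretch thus rested on many sites moving by a small step rather than on a few strong ones.

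**Figure D5:**
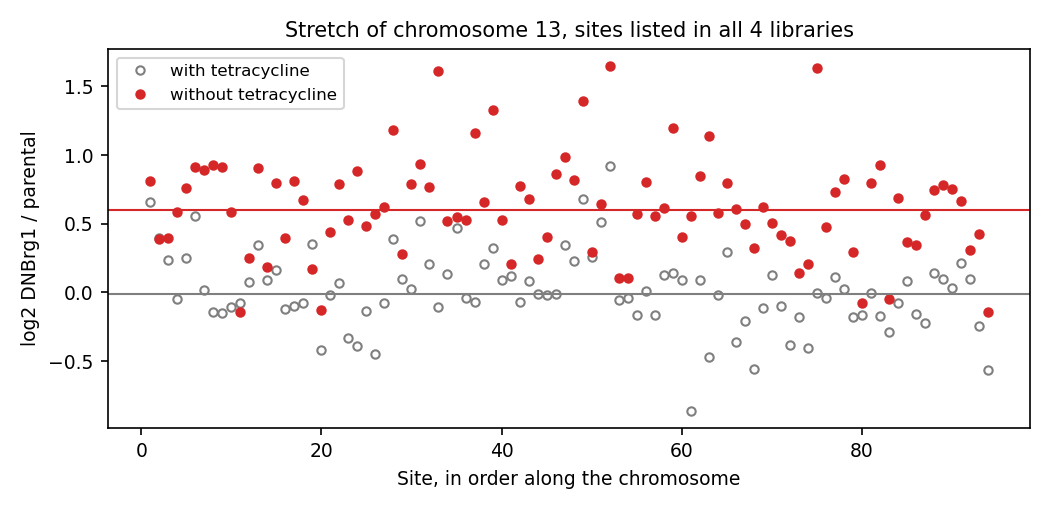
log2 ratio of DNBrg1 to parental density (y axis, median of all shared sites set to 0) at the 94 sites listed in all 4 libraries from 21 to 24 Mb of chromosome 13, in their order along the chromosome (x axis), with tetracycline (open) and without it (filled). Lines mark the medians, -0.01 with and 0.60 without tetracycline, and the filled points lie above the open ones at 91 of the 94 sites.

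Elsewhere windows with a large median difference between states were few. Of the 820 windows, 4 were at 0.5 or higher and 18 at -0.5 or lower. The remaining high window was on chromosome 11 from 48 Mb, at 0.62, with 13 of 14 sites above 0. The lowest was on chromosome X from 11 Mb, at -0.98 over 12 sites. That is a median of differences at single sites, and the window's median ratio was alike in both states (-0.88 without and -0.82 with tetracycline). Next were chromosome 1 from 71 Mb (-0.80 over 15 sites) and chromosome 6 from 100 Mb (-0.69 over 23 sites). Called sites also lay next to each other more often than the share of all sites: the next site along the chromosome was also lower for 840 of 4283 lower sites (19.6%, against 10.5%), and also higher for 209 of 1659 higher sites with a next site (12.6%, against 4.08%). Chromosomes, or parts of them, whose median differs between the lines add to such neighbours, and their share in this was not tested.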

How the data were processed

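DNase-seq was analysed from the hotspot lists of 8 libraries of mouse 3134 cells, 1 library per group, grouped by the submitters' labels. CASAVA 1.6 and build mm9 come from the submitters' processing notes. Not given in the sources used here are the program that called hotspots, its filters and the target of its scaling. The deposited lists hold, per the file headers, the highest and mean tag density of each hotspot, a signal (coverage density) scaled per library by the authors. The authors also deposited a score (z-score) and a p-value per hotspot, per the file headers, and neither was used for calls. The p-value was listed as 0 for 33.0% and 37.4% of hotspots in DNBrg1 and parental cells without tetracycline. All densities (100%) were whole multiples of the density of 1 tag within 0.05 tags. Total depth is unknown.

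Hotspots were merged at an overlap of 1 bp, a site took its highest density per library, and ratios were divided by their median over shared sites in each state. Calls were made at 2-fold. Sites in 1 list were compared with the lowest density in the list that lacked them. Intervals are exact binomial intervals on tags and Wilson intervals on shares, both at 95%. Dense clusters (over 20 hotspots starting within 50 kb), which hold 63 sites, were kept in the counts and left out of the named sites. Named were the 6 greatest ratios in each direction of sites in both lists, the 4 greatest bounds of sites in 1 list, the 6 greatest of sites in all 4 lists called without tetracycline and within 0.5 of 0 on the log2 scale with it, and the 4 greatest called in both states by the smaller change. The 5 groups by density, the windows and the chromosome 13 stretch are descriptions.

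The sites and lists were chosen with earlier results of these data known. Gene lists, cell type markers and motifs could not be applied, since no gene models or sequence of mm9 were used here. Alternatives were other scalings, a density minimum, another overlap, mean density, no bounds, 3-fold, and sites or chromosomes left out. Calling was tested on simulated data with known changes. Calculations used Python 3.11.15, pandas 2.3.3, numpy 2.4.6, matplotlib 3.10.9 and scipy 1.17.1.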

Additional observations from a re-analysis of the deposited data

Results flagged for a closer look

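Among the named sites lower or higher without tetracycline alone, 1 had a DNBrg1 to parental ratio of opposite signs without and with tetracycline, as did 5 of the 12 windows of 1 Mb that differed most between states. Over all 820 windows, 245 had medians of opposite signs, so the sign alone does not set these windows apart. None of these differences between states was tested, since each group has 1 library. At the site on chromosome 19 from 47354055 the log2 ratio was -2.59 without and 0.04 with tetracycline. The median of the window on chromosome 1 from 71 Mb was -0.56 without and 0.24 with tetracycline, and that on chromosome 6 from 100 Mb was -0.12 and 0.36. The windows on chromosome 13 from 21 and from 23 Mb were at 0.59 and 0.57 without tetracycline and at -0.02 and -0.03 with it, and the window on chromosome 11 from 48 Mb was at 0.64 and -0.05. Values with tetracycline within 0.05 of 0 have a sign that a small change of scaling turns.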

How the results depend on the processing

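Lower sites outnumbered higher sites under every setting tried, at 71.6% to 89.7% of the called sites, but the counts moved. They are given as lower, higher, lower and absent with tetracycline, and higher and absent, against 4283, 1661, 2448 and 686. As deposited they were 6560, 757, 3864 and 235. With a density of at least 20 in every list they were 1730, 405, 1153 and 197, and at 3-fold they were 1421, 289, 695 and 55. With no bounds they were 2185, 753, 1535 and 439, the last pair also being the counts of sites listed in all 4 libraries. By mean density, which was used for sites in both lists only because the lists are not cut on it, 2219 were lower, 881 higher and 1571 lower and absent. Bounds from the other list within 50 kb, added after seeing the data, gave 2800 and 888. At 3-fold the difference was absent with tetracycline at 53.7% of the decided lower and 22.8% of the decided higher sites, against 68.4% and 60.0%, and as deposited at 73.7% and 42.6%. The direction of each named site held under every scaling and under mean density where it could be computed. No paired analysis was possible because each group has 1 library. No library could be left out, for the same reason.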

Other observations

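A small set of sites, picked out after its values were seen, differed between the lines with tetracycline and not without it. At 21 sites on 12 chromosomes listed in all 4 libraries, DNBrg1 cells were at least 3-fold lower with tetracycline and within 0.5 of 0 on the log2 scale without it. The median density at these sites was 143 in parental cells with tetracycline, 19.6 in parental cells without it, and 24.02 and 18.9 in DNBrg1 cells with and without it. Parental values with tetracycline began at 59.2, above the highest value of either DNBrg1 library (48.6) or of parental cells without tetracycline (39.4), which the choice of sites in part fixes. DNCHD4 cells, not used in the choice, were at a median of 99.8 with and 89.9 without tetracycline, and DNSnf2h cells at 10.6 and 12.3 where listed (12 and 9 sites). DNCHD4 values ranged widely, from 18.4 to 439 with and from 16.1 to 308 without tetracycline, and so reached into the range of the low libraries. The parental library with tetracycline was the highest of all 8 at 10 of the 21 sites, which the choice of sites also in part fixes.

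In the other direction, 22 sites on 12 chromosomes were at least 3-fold higher in DNBrg1 cells with tetracycline and within the same limit without it. The median density there was 63.3 in DNBrg1 cells with tetracycline and 15.4 without it, against 18.8 and 17.2 in parental cells. The DNBrg1 library with tetracycline was the highest of all 8 at 18 of the 22 sites, which the choice of sites in part fixes. Densities here are as deposited, and that list also had the highest median density of the 8, at 38.1.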
